A study of Mus musculus with 59 samples.

Results

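The genes described here are 40 listed genes of cell division, followed across mouse embryonic stem cells (ESC), induced pluripotent stem cells (iPSC) and ESC made by nuclear transfer (NT-ESC). Each gene was taken at its brightest probe set, and 39 of the 40 had a probe set in the platform's annotation, out of 11807 genes measured; Ccnb1, a B-type cyclin, had none. The measured genes were sorted by role into 15 genes of S phase, 21 genes of mitosis and the 3 D cyclins. No filter on low values was applied, so each of the 39 entered every test.

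A dividing cell first commits to a new round in G1, where D cyclins with their kinase partners inactivate the retinoblastoma proteins and release E2F factors, which drive the genes of DNA replication. A later wave of transcription, driven by B-MYB and FOXM1 bound with the MuvB complex, supplies the kinases, motors and checkpoint proteins of mitosis. Pluripotent mouse cells cycle fast with a short G1 phase, and most of these genes are abundant in them, whereas fibroblasts depend more on D cyclins to enter S phase.

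RNA of 59 lines was hybridised, 1 array per line. The 4 ESC clones were targeted KH2 ESC, a line that carries an inducible cassette for reprogramming by Oct4, Sox2, Klf4 and Myc, and 48 iPSC clones came from somatic cells of chimeric mice made with such cells. Of these, 6 clones came from MEFs (embryonic fibroblasts) of chimera 1. A further 13 came from mouse 1 (4 from HSCs, 4 from GMPs, 3 from granulocytes, 2 from PFs), 14 from mouse 2 (4, 4, 3 and 3) and 15 from chimera 2 (3 from HSCs, 3 from GMPs, 3 from granulocytes, 6 from TTFs). HSCs and GMPs are blood stem and progenitor cells, and with granulocytes they gave 31 blood-derived clones. The labels do not spell out PF and TTF; their 11 clones were counted as 1 fibroblast class. A further clone, Adeno-2, is labelled an Adeno-iPSC from fetal liver. NT-ESC were derived from cloned blastocysts of Adeno-2 (NT-4, NT-5 and NT-6), of the HSC-derived iPSC-7 (NT-7) and of the granulocyte-derived iPSC-15 (NT-8 and NT-9). All lines grew in ESC medium with 15% serum and LIF on irradiated MEFs, which were depleted by preplating for 45 minutes before RNA was taken. No agent distinguished the groups, and the animals' ages were not given in the sources used here.

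The groups are limited as models. Each value is 1 array of 1 clone, clones of an origin come from the same few animals, and the p-values measure the spread between clones. All TTF clones came from chimera 2 and all PF clones from mouse 1 and mouse 2, so the fibroblast source and the animal cannot be told apart, and MEF-derived clones came from an animal that gave no other clones. NT-ESC subclones share a donor line.

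A part of the promoters of these genes carry the letters by which the S-phase and mitotic waves are usually recognised. Shown are 5 that hold such matches: 3 of mitotic genes that differed with cell of origin, and 2 of the replicative helicase. Promoter sequences, in windows of the same length around every start site, are from RefSeq on GRCm38.p6, and 32 of the 40 listed genes were matched (13 S-phase, 18 mitotic, 1 D cyclin). In the first 3 sequences capitals mark the cell cycle homology region element (CHR, searched as TTTGAA or TTCGAA) and the CCAAT box, each on either strand. In the last 2, capitals mark E2F matches on either strand (TTTCCCGC, TTTCGCGC, TTTGCCGC or TTTGGCGC). Bases are numbered from the start site, all 5′ to 3′ on the gene's strand.
Cdk1, chr10:69352913-69353130, minus strand, bases -218 to -1: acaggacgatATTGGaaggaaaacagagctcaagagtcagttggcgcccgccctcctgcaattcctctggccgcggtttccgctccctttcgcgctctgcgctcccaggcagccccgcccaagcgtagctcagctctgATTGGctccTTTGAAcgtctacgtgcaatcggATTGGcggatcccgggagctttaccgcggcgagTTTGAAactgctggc
Ccnb2, chr9:70421561-70421731, minus strand, bases -177 to -7: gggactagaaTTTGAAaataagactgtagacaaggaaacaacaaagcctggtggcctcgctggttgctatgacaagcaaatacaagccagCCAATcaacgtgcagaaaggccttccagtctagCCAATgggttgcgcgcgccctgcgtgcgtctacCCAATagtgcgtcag
Cdc20, chr4:118437344-118437406, minus strand, bases -63 to -1: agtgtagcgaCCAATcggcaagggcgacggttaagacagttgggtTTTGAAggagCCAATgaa
Mcm6, chr1:128359735-128359825, minus strand, bases -120 to -30: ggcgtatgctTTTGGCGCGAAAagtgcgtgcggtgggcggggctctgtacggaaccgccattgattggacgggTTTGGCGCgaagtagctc
Mcm5, chr8:75109346-75109377, plus strand, bases -163 to -132: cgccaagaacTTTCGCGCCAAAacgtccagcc
Cdk1 and Cdc20 held a CHR within the last bases before the start site. Ccnb2 held a further CHR from base 5 after the start site, beyond the stretch shown. In Cdc20 a CCAAT box lies on each side of it, and in Cdk1 all 3 CCAAT boxes lie upstream of it. In Mcm6 and Mcm5 the capital run of 12 letters is an E2F match on each strand, overlapping. The single E2F match of Cdk1 was left in lower case.

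The 13 S-phase genes have 14 promoters in the table and the 18 mitotic genes 1 each. The CHR letters were found in 13 of the 18 mitotic promoters (72.2%) and in 2 of the 14 S-phase promoters (14.3%), against 19.2% of all 32851 promoters. E2F letters were found in 6 of the 14 S-phase promoters (42.9%) and in 1 of the 18 mitotic promoters (5.6%), against 2.3% of all promoters. CCAAT was found in 77.8% of the mitotic promoters, 64.3% of the S-phase promoters and 37.4% of all promoters, and CHR together with CCAAT in 12 of the 18 mitotic promoters (66.7%) against 7.5% of all promoters. TTCGAA reads alike on both strands. These matches describe letters within short windows and do not show binding.

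Values are log2 intensities with each array centred near 0, so only differences of a gene between lines are compared. Array medians ran from -0.348 to -0.051, and NT-7, NT-8 and NT-9 stood apart, with an SD over probe sets of 2.35 to 2.47 against 2.54 to 2.64 in the other 56 arrays. Most lines carried the markers of their labelled identity: the mean of 7 pluripotency markers (among them Pou5f1, Nanog and Esrrb) was 4.57 to 4.78 in ESC and 4.42 to 4.73 in blood-derived iPSC, and the mean of 10 blood markers was -2.05 to -1.77 in the blood-derived clones. Pluripotency means below 4.3 were found in iPSC-34 (3.93) and iPSC-32 (4.02), PF-derived clones of mouse 2, and in NT-7 (4.12), NT-8 (4.00) and NT-9 (4.27). In iPSC-32 the low mean came from 1 marker: Pou5f1, which encodes Oct4, was at 0.28 at its only probe set, against a median of 4.85 in the fibroblast-derived clones, while its Nanog (5.17), Esrrb (4.53), Zfp42 (4.51) and Dppa4 (4.22) were the highest of those clones. The mean of 18 fibroblast or feeder markers (Dcn, Col1a1, Postn and others) varied from 0.03 to 2.49 over the 52 cassette lines. It is given beside the results it moves with, since in RNA of a whole culture fewer cells of a type and less RNA per cell cannot be told apart.

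The question first asked was whether clones keep a trace of their cell of origin in these genes. Mitotic genes were higher in blood-derived than in PF- and TTF-derived clones. A part of the S-phase genes was higher too, and cyclins D1 and D2 were lower. The MEF-derived clones, also of fibroblasts but from another animal, were not in this comparison. Of the 14 groups of ESC and cassette iPSC, they had the highest mean for the mitotic genes Top2a, Aurkb (2.86), Bub1b, Cdk1, Ccnb2 (4.18), Kif2c and Cenpa. Their mean was the lowest for the mitotic gene Foxm1 (0.7) and for Ccnd1 (3.09). With animal as a term in the model, 29 of the 39 genes differed between the 31 blood-derived and 11 fibroblast-derived clones, 26 higher and 3 lower in blood-derived clones. Over all 11807 genes, 28.1% were higher and 21.6% lower in this comparison. Of the mitotic genes 17 of 21 were higher and 0 lower (median difference 0.26), of the S-phase genes 9 of 15 were higher and 1 lower (median 0.10), and of the D cyclins 2 of 3 were lower, whereas the median over all genes was 0.003. With 1 mean per animal and cell of origin in place of single clones, 23 of the 29 were called again. They were 16 of the 17 mitotic genes, 5 of the 10 S-phase genes and 2 D cyclins. With quantile normalization 25 of the 29 were called again, and Mcm2, Mcm3, Mcm5 and Birc5 were not. Without iPSC-32, the clone with low Pou5f1, 27 of the 29 were called again, and Mcm2 and Mcm3 were not.

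**Figure D1:**
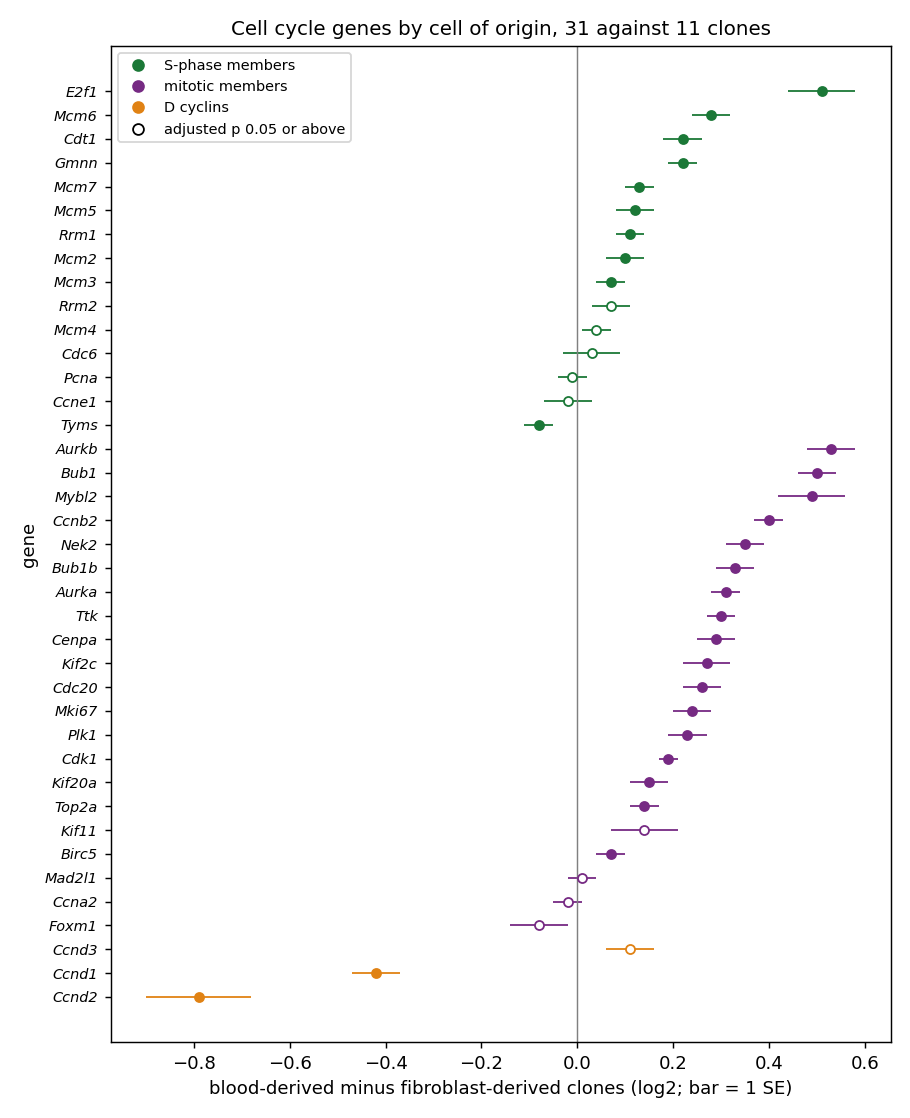
Difference between blood-derived and fibroblast-derived clones for each of the 39 genes (x axis, log2, bars 1 SE, limma with animal as a term; y axis, genes). Mitotic genes lie mostly to the right of 0, up to 0.53 for Aurkb, while Ccnd1 (-0.42) and Ccnd2 (-0.79) lie to the left.

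Among the S-phase regulators, E2f1, the first described E2F factor, was 1.14 to 2.05 in the blood-derived clones (median 1.75) and 0.72 to 1.71 in the fibroblast-derived clones (median 1.35). The groups overlapped, with the blood-derived iPSC-7 and the PF-derived iPSC-34 at the low ends. The difference was 0.51 (SE 0.07, adjusted p = 2.4e-07 by limma). Ccne1, the cyclin that starts S phase with Cdk2, differed by -0.02 (SE 0.05, adjusted p = 0.758).

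The licensing factors load the helicase onto origins, and Gmnn holds Cdt1 in check. Cdt1 was 4.63 to 4.93 (median 4.76) in blood-derived clones and 4.34 to 4.70 (median 4.61) in fibroblast-derived clones, and its difference of 0.22 had an adjusted p of 6.2e-06. Gmnn was also higher, by 0.22 (adjusted p = 6.8e-08). Cdc6 differed by 0.03 (adjusted p = 0.716), with its highest value of 2.68 in the TTF-derived iPSC-46.

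The 6 Mcm2-7 genes encode the replicative helicase, whose subunits act as 1 ring. Mcm6 was 4.65 to 5.10 (median 4.91) in blood-derived and 4.42 to 4.71 (median 4.63) in fibroblast-derived clones, a small overlap, and was higher by 0.28 (SE 0.04, adjusted p = 5.9e-08). Mcm7 was higher by 0.13 (adjusted p = 8.9e-05), Mcm5 by 0.12 (0.0122), Mcm2 by 0.10 (0.0494) and Mcm3 by 0.07 (0.0286), and Mcm4 differed by 0.04 (0.198). Without iPSC-34 and iPSC-46, an alternative chosen after seeing the data, Mcm2, Mcm3 and Mcm5 no longer passed.

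Pcna, the sliding clamp of the polymerases, was 5.70 to 6.00 (median 5.83) in blood-derived and 5.70 to 5.92 (median 5.84) in fibroblast-derived clones. The ranges nearly coincided, and the difference was -0.01 (adjusted p = 0.711). Of the enzymes that supply nucleotides, the ribonucleotide reductase subunit Rrm1 was higher by 0.11 (adjusted p = 0.00426) and Rrm2 differed by 0.07 (0.142). Thymidylate synthase, Tyms, was the only S-phase gene called lower, by -0.08 (SE 0.03, adjusted p = 0.0316), and it was at 0.04 when the mean of its probe sets was used and at 0.02 without chimera 2.

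Among the mitotic genes, Bub1, a checkpoint kinase of the kinetochore, was 4.07 to 4.57 (median 4.37) in blood-derived clones and 3.60 to 4.06 (median 3.89) in fibroblast-derived clones. Every blood-derived clone was above every fibroblast-derived clone, and the difference was 0.50 (SE 0.04, adjusted p = 1.4e-12). The share of all genes without overlap was counted only within mouse 2 and within chimera 2, as given below, and not over the pooled clones. Aurkb, the kinase of the chromosomal passenger complex, was 2.16 to 2.80 (median 2.33) against 1.69 to 2.14 (median 1.92), again with no overlap, a difference of 0.53 (SE 0.05, adjusted p = 6.0e-11).

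Aurka, which matures spindle poles, also had ranges that did not overlap. It was 3.52 to 3.78 (median 3.68) in blood-derived and 3.24 to 3.47 (median 3.39) in fibroblast-derived clones, a difference of 0.31 (SE 0.03, adjusted p = 3.6e-11). Of the other mitotic kinases, Nek2 was higher by 0.35 (adjusted p = 2.4e-08), Ttk by 0.30 (3.5e-09) and Plk1 by 0.23 (6.2e-06). Nek2, Ttk and Plk1 act in centrosome separation, in the spindle checkpoint and at many steps of mitosis, respectively.

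Of the cyclin-dependent kinase of mitosis and its cyclins, Cdk1 and Ccnb2 were higher and Ccna2 was not called. Ccnb2 was 3.64 to 4.15 (median 3.96) in blood-derived clones and 3.47 to 3.66 (median 3.57) in fibroblast-derived clones, overlapping through iPSC-7 at 3.64, and was higher by 0.40 (SE 0.03, adjusted p = 1.3e-12). Cdk1 was 4.75 to 4.95 (median 4.85) against 4.56 to 4.75 (median 4.70) and was higher by 0.19 (SE 0.02, adjusted p = 5.8e-08). Ccna2, whose product acts in both S phase and mitosis, differed by -0.02 (adjusted p = 0.64).

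Of the checkpoint proteins, Bub1b was higher by 0.33 (adjusted p = 2.5e-09), from 3.35 to 3.86 in blood-derived and 3.19 to 3.49 in fibroblast-derived clones. Cdc20, which activates the anaphase-promoting complex, was higher by 0.26 (adjusted p = 2.0e-07). Mad2l1 differed by 0.01 (0.871). Among the kinesins, Kif2c (0.27, adjusted p = 5.4e-06) and Kif20a (0.15, adjusted p = 7.6e-04) were higher, and Kif11, the motor that pushes spindle poles apart, differed by 0.14 (0.0839).

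Cenpa, the histone variant of the centromere, was higher by 0.29 (adjusted p = 8.8e-09), and Mki67, the proliferation antigen that coats chromosomes, by 0.24 (2.6e-06). Top2a and Birc5 were higher by 0.14 (2.4e-04) and 0.07 (0.0359). Top2a's second, dimmer probe set differed by -0.15 and was not called (adjusted p = 0.0536 by limma with every probe set tested). Its mean level was -2.95, against 5.08 at the brightest. The mean of Top2a's probe sets differed by 0.00.

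Of the regulators of the mitotic wave, Mybl2 was higher and Foxm1 was not called at its brightest probe set. Mybl2, which encodes B-MYB, was 2.63 to 3.30 (median 3.00) in blood-derived clones and 1.95 to 2.84 (median 2.54) in fibroblast-derived clones, and was higher by 0.49 (SE 0.07, adjusted p = 6.5e-08). Foxm1 differed by -0.08 at its brightest probe set (adjusted p = 0.219) and by 0.38 at another (adjusted p = 3.1e-06 with every probe set tested). Of the 17 genes with several probe sets, all of a gene's probe sets ran in 1 direction for 11, and those of Ccna2, Foxm1, Mcm3, Rrm2, Top2a and Tyms were split. Counting only probe sets with a mean above 0, 13 genes had several, and these ran in 1 direction for 10.

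Cyclins D1 and D2, which carry growth signals into G1, were lower in blood-derived clones. Ccnd2 was 1.31 to 3.61 (median 2.37) in blood-derived clones and 2.61 to 3.56 (median 2.92) in fibroblast-derived clones, and Ccnd1 was 3.11 to 4.22 (median 3.64) against 3.65 to 4.22 (median 3.91). The ranges overlapped because the blood-derived clones spanned wide ranges; iPSC-43 was lowest and iPSC-7 highest for both genes. Ccnd2 was lower by -0.79 (SE 0.11, adjusted p = 1.4e-07) and Ccnd1 by -0.42 (SE 0.05, adjusted p = 1.5e-09), and the 6 probe sets of Ccnd2 and the 3 of Ccnd1 were each called lower. Ccnd3 differed by 0.11 (adjusted p = 0.0639).

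Other genes of the same processes were read from lists apart from the 40, on the same arrays. These lists were chosen with earlier results of these data known, so they are not an independent test. Over all genes 28.1% were higher and 21.6% lower. Of 36 further mitotic genes 34 were higher in blood-derived clones and 0 lower (median 0.30), led by the microtubule-binding Nusap1 (0.54, adjusted p = 4.1e-13) and Hmmr (0.42, 1.1e-11). Of 25 further S-phase genes 19 were higher and 1 lower (median 0.19), among them the polymerase subunits Pold1 (0.36, 1.3e-08) and Pole (0.28, 5.3e-08). The 21 G1 regulators were mixed, with 8 higher and 3 lower, a median of 0.05 and differences from -0.49 to 0.55. Among the higher ones were Rb1, the retinoblastoma gene, by 0.55 (6.7e-10), its relative Rbl2 by 0.48 (1.8e-07), and Mycn by 0.23 (1.7e-05).

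The differences were then read within each of the 3 animals that gave both kinds of clone. In mouse 2 (11 blood-derived, 3 PF-derived clones) 14 of 21 mitotic genes were higher (median 0.33) and in chimera 2 (9 and 6 TTF-derived) 15 of 21 (median 0.25). In mouse 1 (11 and 2 PF-derived) 4 of 21 were higher (median 0.16). No mitotic gene was called lower in any of the 3 animals. Of 15 S-phase genes 6 were called higher in mouse 2, 6 higher and 1 lower in chimera 2, and 2 higher in mouse 1. Over all genes the shares called in either direction were 38.2%, 33.6% and 13% in mouse 2, chimera 2 and mouse 1. Counted without a test, every blood-derived clone lay above every PF-derived clone of mouse 2 for 12 of 21 mitotic and 4 of 15 S-phase genes (11.8% of all genes), and below them for Ccnd1 and Ccnd2 (8.22% of all genes). In chimera 2 the same held for 10 mitotic genes and 1 S-phase gene, E2f1 (6.8% of all genes), and below for Ccnd1 and Ccnd2 (4.82%).

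In mouse 1 the difference was above 0 for 17 of 21 mitotic genes and below 0 for Plk1, Kif11, Mad2l1 and Foxm1. Aurkb is 1 of the 4 mitotic genes called in that animal, with Bub1, Ccnb2 and Ttk, so it is not typical there. Its level was 2.26 ± 0.06 (SD, n = 11) in blood-derived and 2.04 in both PF-derived clones of mouse 1, 2.34 ± 0.09 (n = 11) against 1.79 ± 0.12 (n = 3) in mouse 2, and 2.59 ± 0.15 (n = 9) against 1.93 ± 0.20 (n = 6) in chimera 2. The groups did not overlap in any of the 3 animals, and the differences were 0.22, 0.55 and 0.65 (adjusted p = 0.0277, 1.4e-05 and 2.0e-05). Ccnb2 differed by 0.24, 0.43 and 0.46 and was called in each.

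The size of the difference between origins depended on the animal for 11 of the 39 genes by the interaction test, 6 of S phase, 3 mitotic and 2 D cyclins, against 20.7% of all genes. Ccnd2 had the widest spread of differences among the 39, 0.15 in mouse 1, -0.98 in mouse 2 and -1.09 in chimera 2 (interaction adjusted p = 2.9e-04). Ccnd1 differed by -0.10, -0.46 and -0.53 (0.00628), and Plk1 by -0.01, 0.33 and 0.28 (0.0161).

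Fibroblast and feeder markers moved with this result. Of the 18 markers, 17 were lower in blood-derived clones and 0 higher (median -0.91), and their mean was 1.02 in blood-derived clones (0.50 in iPSC-43 to 2.11 in iPSC-7) and 1.82 in fibroblast-derived clones (1.33 to 2.49). The scale has no zero, so no marker can be called absent; Dcn was lower by -1.63 (adjusted p = 2.9e-11). By animal, the mean was 1.43 in blood-derived against 1.68 in PF-derived clones of mouse 1, 0.88 against 2.23 in mouse 2, and 0.71 against 1.66 in chimera 2. With the marker mean as a covariate, 11% of all genes were called higher and 4.76% lower, and 10 of the 39 genes were called, each higher: Mcm6 (0.27), Rrm1 (0.19), Aurka (0.17), Aurkb (0.38), Bub1 (0.38), Bub1b (0.20), Cdc20 (0.19), Ccnb2 (0.25), Ttk (0.17) and Nek2 (0.30). In that fit Ccnd2 was at 0.05 (adjusted p = 0.794), Ccnd1 at -0.13 (0.182) and E2f1 at 0.05 (0.771). The marker mean itself differed with origin. It was 0.56 to 1.07 in blood-derived and 2.04 to 2.49 in PF-derived clones of mouse 2. In chimera 2 it was 0.50 to 0.85 in blood-derived and 1.33 to 2.03 in TTF-derived clones. The fit therefore cannot separate origin from feeder content, for the genes called in it or for those not called.

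Pluripotency and differentiation markers moved as well: 6 of 7 pluripotency markers were higher in blood-derived clones (median 0.24), and of 10 differentiation markers 1 was higher and 5 lower (median -0.29). The part of either in the cell cycle differences was not tested.

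**Figure D2:**
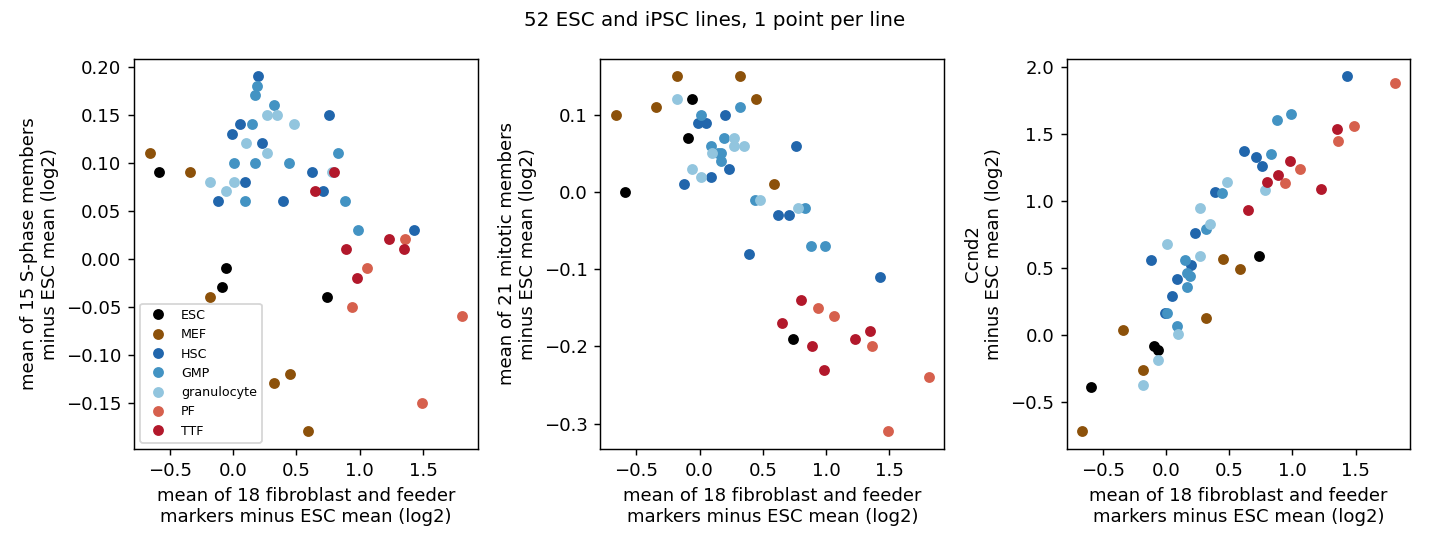
Fibroblast and feeder marker mean (x axis, log2) against the mean of the S-phase genes, the mean of the mitotic genes and Ccnd2 (y axes), all as differences from the ESC mean on the log2 scale, in the 52 ESC and cassette iPSC lines, 1 point per line, coloured by origin. The lines with the highest Ccnd2, iPSC-7 (level 3.61) and iPSC-32 (3.56), lie toward the right, with marker means of 2.11 and 2.49.

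Across lines of the same group, Ccnd2 followed these markers. After each line's deviation from its group mean was taken over the 52 lines, Pearson's r between Ccnd2 and the marker mean was 0.87, between Ccnd1 and the mean 0.57, and between Ccnd3 and the mean -0.13. The mean of the mitotic genes had r = -0.48 with the markers and the mean of the S-phase genes r = -0.62. Points share array, group and culture, and both quantities are read from the same array, so these values are descriptions.

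Many of the mitotic and S-phase genes also varied together. The mean r between pairs was 0.23 among mitotic genes and 0.19 among S-phase genes, 0.14 between the classes, and -0.0 over all gene pairs. Of the pairs between the classes 64.4% were positive, against 49.7% of all gene pairs. Bub1b (r = 0.83) and Ccnb2 (0.79) followed the mean of the other mitotic genes most closely, and Cdk1 had r = 0.74. Others did not follow it: r was -0.25 for Birc5, -0.10 for Foxm1 and 0.05 for Ccna2 among mitotic genes, and -0.25 for both Mcm3 and Tyms among S-phase genes. The spread of these genes between clones of a group was like that of other bright genes, with a median SD of 0.11 against 0.11 for the brightest 25% of all genes. It was 0.16 for the D cyclins and 0.16 over all genes.

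**Figure D3:**
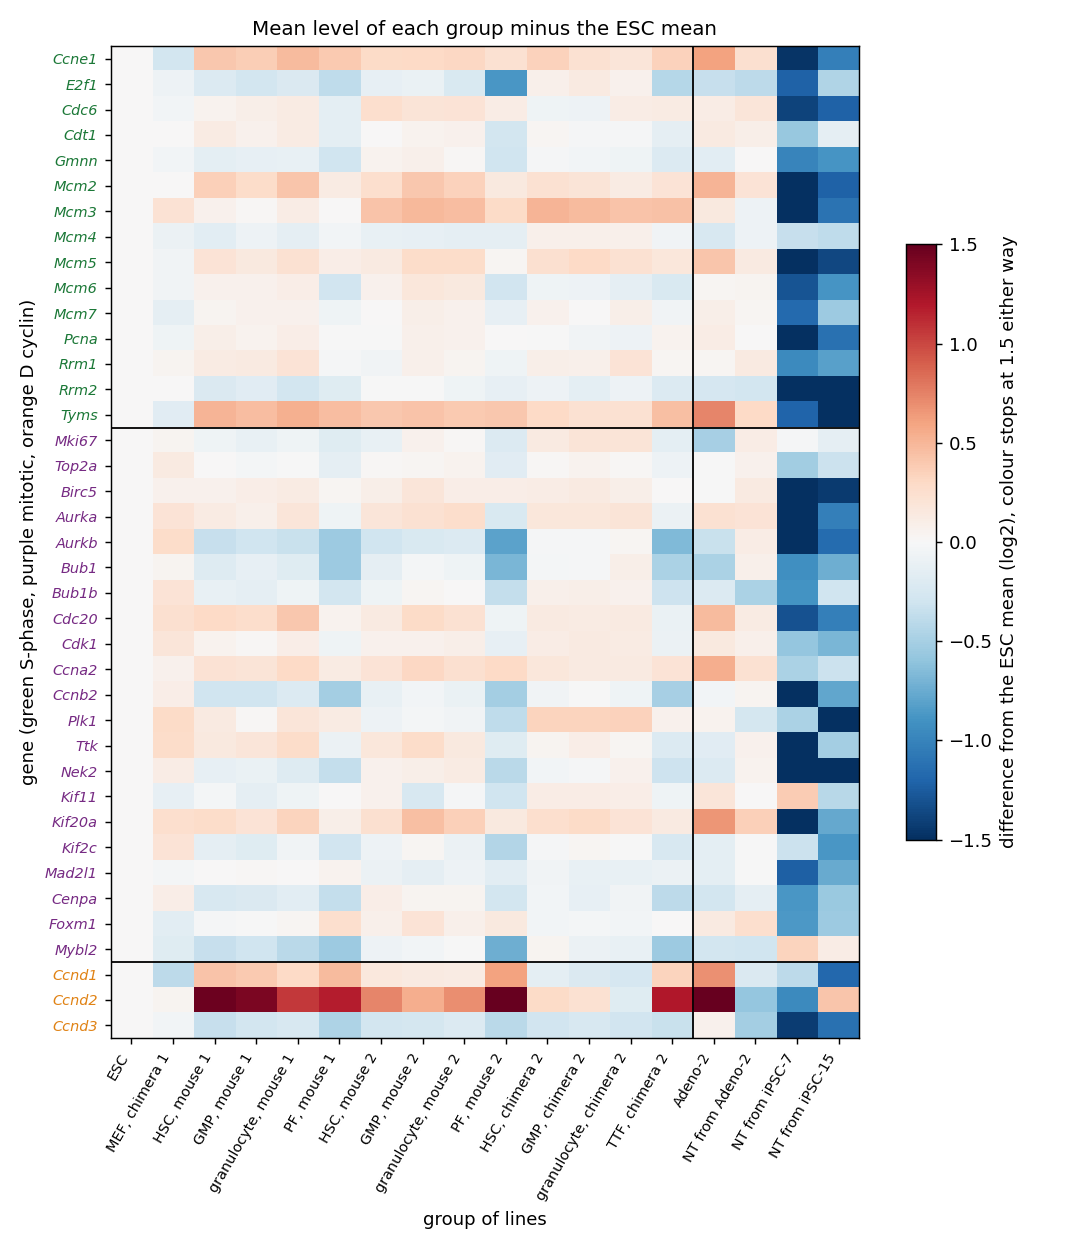
Mean level of each group minus the ESC mean (colour, log2) for the 39 genes (y axis) and the groups of lines (x axis). The NT-ESC of iPSC-7 and iPSC-15 are below ESC for most genes, and Ccnd2 is above ESC in the clones of mouse 1.

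Within blood, the stage of the starting cell left no called difference. Between granulocyte-derived (9) and HSC-derived (11) clones, 0 of the 39 genes were called by limma, as were 0% of all genes; 2 of the 39 and 390 of all genes had an unadjusted p below 0.05. The differences ran from -0.31 (Ccnd2, SE 0.14) to 0.09 (Rrm1, SE 0.04). Any difference among HSC, GMP, granulocyte and fibroblast origin was called for 24 of the 39 genes, 16 of them mitotic, against 38% of all genes.

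A difference between animals was called for 23 of the 39 genes, 13 mitotic, 8 of S phase and 2 D cyclins, against 44.9% of all genes. Mcm3 was 3.68 to 3.94 in the 13 clones of mouse 1, 3.95 to 4.29 in the 14 of mouse 2 and 4.10 to 4.27 in the 15 of chimera 2. Mouse 1 lay below both other animals without overlap, by 0.38 against mouse 2 (SE 0.03, adjusted p = 1.6e-12) and 0.43 against chimera 2 (SE 0.03, adjusted p = 5.9e-14). Among the ESC clones the same gene was at 4.16 in ESC-1 and 3.56 to 3.65 in the other 3.

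Plk1 followed another order. It was lowest in the PF-derived clones of mouse 2 (2.05 ± 0.04, SD, n = 3), 2.35 ± 0.06 (n = 4) in HSC-derived clones of that animal, and 2.76 ± 0.07 (n = 3) in HSC-derived clones of chimera 2, where TTF-derived clones were at 2.49 ± 0.08 (n = 6). The animals differed by up to 0.39 (adjusted p = 3.1e-09).

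The D cyclins were described in every group. Ccnd2 was lowest among ESC and cassette iPSC in granulocyte-derived clones of chimera 2 (1.50 ± 0.19, SD, n = 3), ESC (1.68 ± 0.41, n = 4) and MEF-derived clones (1.72 ± 0.48, n = 6), which do not differ beyond their spread. The HSC- and GMP-derived clones of chimera 2 followed (1.97 ± 0.13 and 1.91 ± 0.20, n = 3 each), then the blood-derived clones of mouse 2 (means of 2.22 to 2.41). The blood-derived clones of mouse 1 reached 2.74 ± 0.10 (granulocytes, n = 3) to 3.15 ± 0.31 (HSCs, n = 4), next to the PF-derived clones of that animal (2.86 ± 0.08, n = 2) and the TTF-derived clones (2.88 ± 0.21, n = 6). The highest group was the PF-derived clones of mouse 2 (3.31 ± 0.22, n = 3).

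Ccnd1 ran in a similar order, with chimera 2's blood-derived clones at 3.11 to 3.34, MEF-derived clones at 3.09 ± 0.16 (n = 6), ESC at 3.48 ± 0.26 (n = 4) and PF-derived clones of mouse 2 at 4.08 ± 0.13 (n = 3). Ccnd3 had group means from 2.14 ± 0.06 (PF of mouse 1, n = 2) to 2.60 ± 0.20 (ESC, n = 4). The range of group means was 1.81 for Ccnd2 and 0.99 for Ccnd1, against a median of 0.46 over the 39 genes.

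**Figure D4:**
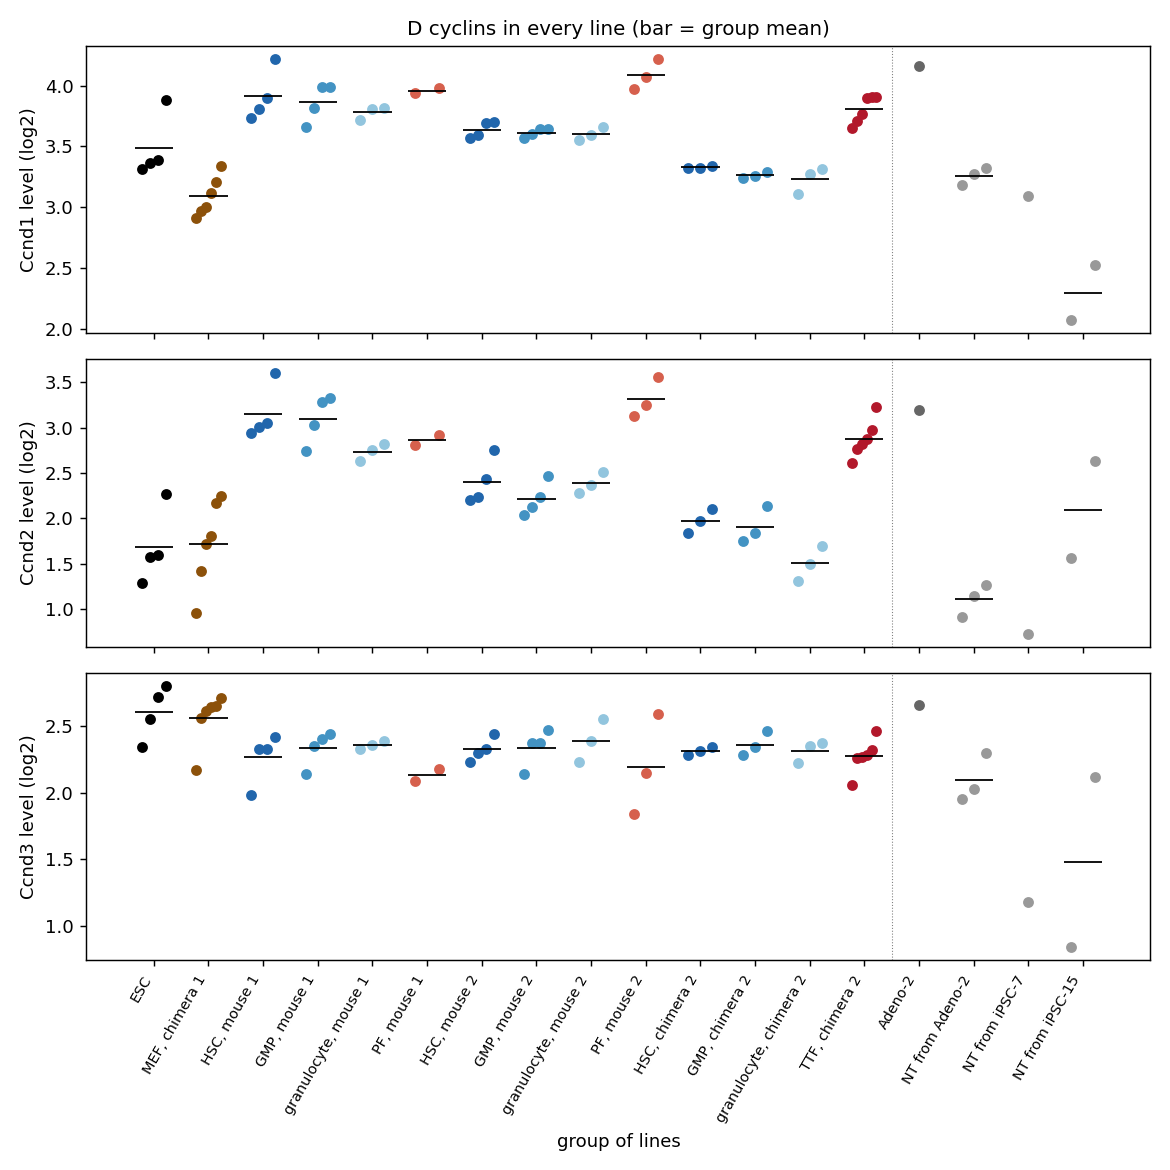
Levels of Ccnd1, Ccnd2 and Ccnd3 (y axes, log2 intensity) in every line by group (x axis); points are lines and bars group means. Ccnd2 in blood-derived clones runs from 2.63 to 3.61 in mouse 1, 2.04 to 2.75 in mouse 2 and 1.31 to 2.14 in chimera 2.

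Whether iPSC as a class match ESC was asked next. ESC arrays serve in this comparison and in the following comparisons of MEF-derived clones and of NT-ESC, whose results are therefore not independent. Of the 39 genes 2 differed between the 48 iPSC and 4 ESC, both mitotic and both higher in iPSC, against 2.52% of all genes higher and 2.41% lower. Kif20a, a kinesin of cytokinesis, was 3.75, 3.94, 3.98 and 3.76 in ESC-1 to ESC-4 and 3.92 to 4.36 (median 4.10) in iPSC. Ccna2 was 4.26, 4.14, 4.09 and 4.15 in ESC and 4.11 to 4.60 (median 4.35) in iPSC. The groups overlapped for both genes, and the differences were 0.25 (SE 0.06, adjusted p = 0.019) and 0.20 (SE 0.05, adjusted p = 0.0264).

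The sizes held when single ESC clones were left out, but the calls held only when ESC-1 was the clone left out. Without ESC-2, ESC-3 or ESC-4 the difference of Kif20a was 0.28, 0.29 and 0.22 (adjusted p = 0.0911, 0.0766 and 0.0831). That of Ccna2 was 0.19, 0.18 and 0.19 (0.162, 0.205 and 0.0741). In each of these 3 fits 0 of the 39 genes were called. Of all genes 0.00847%, 0% and 1.23% were called higher and 0.0423%, 0.0423% and 1.34% lower in these fits. Without ESC-1 4 of the 39 were called (Mcm3, Ccna2 and Kif20a higher, Ccnd3 lower), as were 4.59% of all genes higher and 4.83% lower. With animal as a random block 0 of the 39 and 0% of all genes were called, with Kif20a at 0.25 (adjusted p = 0.529) and Ccna2 at 0.19 (0.532). Without the MEF-derived clones 9 of the 39 were called, 8 higher and 1 lower, against 10.2% of all genes higher and 9.06% lower. ESC-1 stood apart, with Aurkb at 1.82 against 2.77 to 2.96 in the other 3, Bub1 at 4.06 against 4.50 to 4.56, and Ttk at 3.24 against 3.67 to 3.73. Its fibroblast marker mean was 1.42, the highest of the 4 clones (0.09 to 0.62 in the others), and the part of that in the low mitotic genes was not tested.

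Between the 6 MEF-derived iPSC and the 4 ESC, 0 of the 39 genes were called by limma, as were 0% of all genes, with 6 of the 39 and 997 of all genes at an unadjusted p below 0.05. The smallest adjusted p among the 39 was 0.334. Mitotic differences had a median of 0.11 and S-phase differences a median of -0.04, against 0.01 over all genes. Ccnd1 differed by -0.39 (adjusted p = 0.406) and Plk1 by 0.29 (0.334).

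NT-ESC were compared with the iPSC clones whose nuclei they carry. With the donor as a block 0 of the 39 genes were called by limma, though 22 had an unadjusted p below 0.05; of all genes 0.0169% were higher and 0.0423% lower, and 4824 had an unadjusted p below 0.05. The smallest adjusted p was 0.06, for Ccnd1 (difference -1.17, SE 0.18), next to Ccnd2 (-1.82, SE 0.38, adjusted p = 0.061). Differences were negative for 15 of 15 S-phase genes (median -0.83), 18 of 21 mitotic genes (median -0.44) and all 3 D cyclins, while the median over all genes was 0.121. The 6 NT-ESC did not behave alike, so each is described.

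NT-4, NT-5 and NT-6, from Adeno-2, had S-phase and mitotic genes near ESC, with median shifts from the ESC mean of 0.00, 0.07 and 0.03 for S-phase and 0.04, 0.09 and 0.01 for mitotic genes. An exception was Bub1b in NT-6, at 2.62 against 3.40 and 3.51 in NT-4 and NT-5. Their D cyclins were below their donor: Ccnd2 was 3.20 in Adeno-2 and 1.14, 0.91 and 1.27 in NT-4, NT-5 and NT-6. Ccnd1 was 4.16 in Adeno-2 and 3.27, 3.18 and 3.32 in the 3 subclones.

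The donor is 1 array, so its own spread is unknown and these values are a description. The fibroblast marker mean was 1.63 in Adeno-2 and 0.13 over the 3 subclones, and its part in these differences was not tested.

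NT-7, NT-8 and NT-9 were low for nearly the whole program. Their S-phase genes were shifted from the ESC mean by medians of -1.28, -1.25 and -0.71 and their mitotic genes by -0.90, -0.96 and -0.45. Of the 39 genes, 37, 37 and 36 lay below the ESC mean. Their donors did not share this, with medians of 0.07 and -0.08 for S-phase and mitotic genes in iPSC-7 and 0.12 and -0.02 in iPSC-15.

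Rrm2, the regulated subunit of ribonucleotide reductase, was 4.56 to 4.92 in ESC, 4.43, 4.58 and 4.47 in NT-4, NT-5 and NT-6, and 1.77, 2.26 and 3.06 in NT-7, NT-8 and NT-9. Aurka was 3.38 to 3.60 in ESC, 3.52 in iPSC-7 and 0.67 in NT-7, and 3.71 in iPSC-15 against 2.40 and 2.54 in NT-8 and NT-9. Mcm5 was 3.65 to 3.94 in ESC and 1.34, 1.88 and 2.89 in NT-7, NT-8 and NT-9. For these 3 genes the low subclones lay below every ESC clone and below their donors.

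A few genes did not follow, or not in each of these lines. Mybl2 was 3.46, 3.25 and 3.24 in NT-7, NT-8 and NT-9, at or above most ESC clones (2.82 to 3.33). Mki67 was 4.30, 3.76 and 4.61 against 4.28 to 4.39 in ESC, so it was low in NT-8. Kif11 in NT-7 was 3.26 against 2.86 to 2.90 in ESC. Ccnd2 was 0.73 in NT-7 but 2.63 in NT-8, where it lay above all 4 ESC clones.

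**Figure D5:**
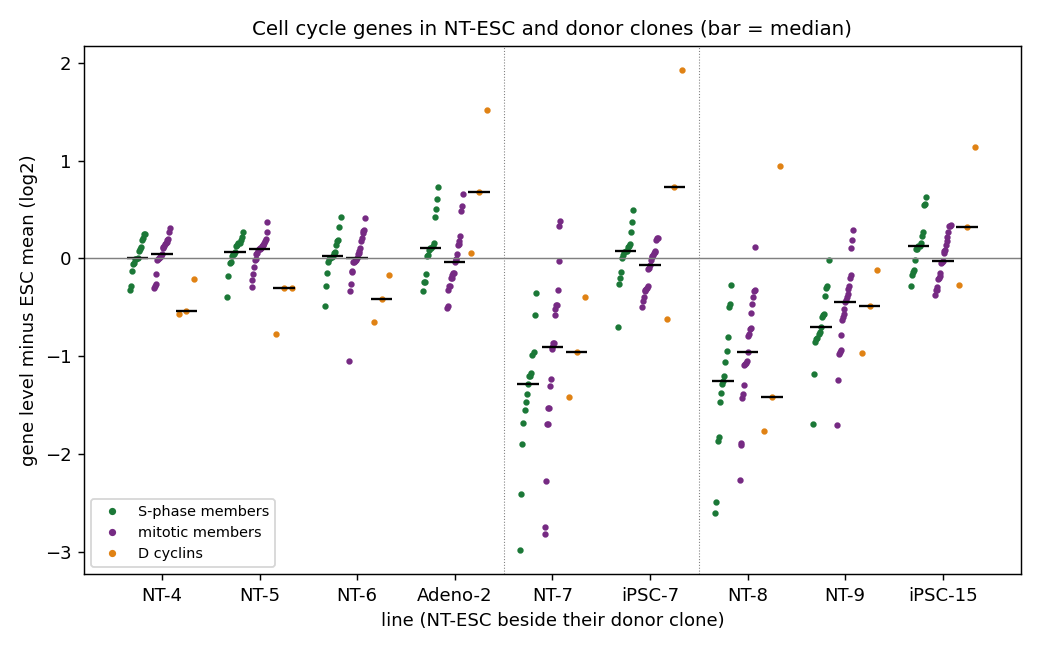
Level of each of the 39 genes minus the ESC mean (y axis, log2) in the 6 NT-ESC and their donor clones (x axis), coloured by class, with bars at the class medians. S-phase medians are -1.28, -1.25 and -0.71 in NT-7, NT-8 and NT-9 and between 0.00 and 0.12 in the other lines.

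These 3 arrays also differed from the rest as a whole. Over all genes their median shift was 0.25, 0.22 and 0.17, and over the brightest 25% of genes -0.48, -0.44 and -0.23, with 71.8%, 71.3% and 66.9% of those below ESC. After quantile normalization the S-phase medians were -1.02, -0.98 and -0.53, the mitotic medians -0.62, -0.69 and -0.27, and those of the brightest 25% were -0.21, -0.19 and -0.08. Markers of differentiating cells were shifted by 0.58, 1.56 and 1.11. The parts of array quality and of cell state in the low values were not tested. Without the Adeno-2 family, 16 of the 39 genes were called, all lower in NT-ESC, against 10.4% of all genes lower and 10.2% higher; that fit holds 3 NT-ESC, the same 3 arrays, and 2 donors.

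Against ESC, 0 of the 39 genes were called in NT-ESC by limma, with 4 at an unadjusted p below 0.05 and a smallest adjusted p of 0.275. Of all genes 0% were higher and 0.00847% lower, and 2074 had an unadjusted p below 0.05. Medians were -0.54 for S-phase genes, -0.43 for mitotic genes and -0.57 for D cyclins, against 0.124 over all genes.

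The genes on chromosome 11 need a separate word, since Aurkb, Cdc6, Top2a and Birc5 lie there. In 3 lines many genes of that chromosome were high against the other lines of their group. In iPSC-34 the 530 genes of chromosome 11 with a mean level above 0, the 40 listed genes left out, had a median deviation of 0.29, with 88.5% of them above, against -0.08 over 5626 genes of other chromosomes. In iPSC-46 and iPSC-2 the last 25% of those genes by position deviated by medians of 0.36 and 0.32, and the first 25% by -0.0 and -0.08. Cdc6, Top2a and Birc5 in iPSC-46 deviated by 0.61, 0.43 and 0.22, and in iPSC-34 by 0.15, 0.19 and 0.21. Both iPSC-34 and iPSC-46 are fibroblast-derived. Without them Top2a differed between origins by 0.19, Birc5 by 0.11 and Aurkb by 0.55. Of the 29 genes called with them, 26 were called again. The chromosome content of these lines was not tested.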

How the data were processed

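The deposited table holds log2 intensities of 22626 probe sets on 59 arrays, centred per array by the authors; the base and centring were read from the values (-4.827 to 6.969), and the summarisation is not given in the sources used here. Per the platform annotation 18003 probe sets had 1 gene, 287 several and 4336 none, and each gene was taken at its brightest probe set. Fits used limma 3.58.1 in R 4.3.3 (lmFit, eBayes, 2-sided moderated tests, Benjamini-Hochberg over 11807 genes, threshold 0.05) and were tested on simulated data. Blood was set against fibroblast origin over 42 clones with animal as a term; iPSC, MEF-derived iPSC and NT-ESC were set against ESC without covariates; NT-ESC were set against donors with the donor as a block. All adjusted p-values are limma's.

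The members and lists were chosen with earlier results of these data known. Any member could be named in any comparison; from each other list, genes past the threshold among the 4 with the smallest p, and certain G1 regulators. Coordinates are those of the promoter table (GRCm38.p6). The number of arrays limits the precision, and scan dates were not used here. Quantile normalization, filters, probe set rules, covariates and omitted clones were tried as alternatives.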

Additional observations from a re-analysis of the deposited data

Results flagged for a closer look

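Of 273 combinations of a gene and a group of 4 to 6 clones, 27 had 1 clone far from the others by Dixon's criterion; chance gives about 1 in 20. Among ESC, Cdc6 was high in ESC-4 (2.21, others 1.97 to 2.00), and ESC-1 was high for Mcm3 (4.16) and Ccnd1 (3.88) and low for Aurkb (1.82), Bub1 (4.06) and Ttk (3.24). Among MEF-derived clones, iPSC-5 was low for Mcm4 (4.39), Rrm2 (4.51) and Aurkb (2.64), iPSC-2 for Kif20a (3.93) and iPSC-4 for Ccnd3 (2.17). Among HSC-derived clones of mouse 1, iPSC-9 was high for Mcm5 (4.13) and Tyms (4.11), and iPSC-7 was low for Ccnb2 (3.64) and high for Ccnd2 (3.61); among GMP-derived clones, iPSC-14 was high for Mcm3 (3.79) and Kif20a (4.15). In mouse 2, iPSC-21 was low for Cdc6 (2.09), iPSC-24 high for Cenpa (3.82), iPSC-28 high for Cdk1 (4.92), and iPSC-26 high for Nek2 (2.13) and low for Kif2c (1.89). Among TTF-derived clones, iPSC-46 was high for Cdc6 (2.68) and Top2a (5.34) and low for Ccne1 (3.65), Cdt1 (4.35) and Cdc20 (4.02).

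The difference between blood and fibroblast origin varied between animals, by limma's interaction test, for 11 genes. The widest gap between 2 animals' differences was 1.24 for Ccnd2 (adjusted p = 2.9e-04), 0.43 for Ccnd1 (0.00628), 0.58 for E2f1 (0.0474) and 0.43 for Aurkb (0.0161). It was 0.34 for Plk1 (0.0161), 0.28 for Mcm6 (0.00536), 0.27 for Aurka (0.00823), 0.24 for Tyms (0.0101), 0.22 for Mcm4 (0.026), 0.19 for Gmnn (0.0461) and 0.19 for Pcna (0.0343).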

How the results depend on the processing

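The 29 genes that differed between blood and fibroblast origin numbered 24 to 31 under the other settings, and 10 with the fibroblast marker mean as a covariate, where Ccnd2 turned to 0.05. That marker mean itself differed with origin, so the covariate fit cannot separate origin from feeder content. With 1 mean per animal and cell of origin, so that clones were not counted as replicates, 23 of the 29 were called again. They were 16 of the 17 mitotic genes, 5 of the 10 S-phase genes and 2 D cyclins. With the mean of a gene's probe sets Tyms turned to 0.04 and Top2a to 0.00, and without chimera 2 Tyms turned to 0.02. Tyms and Top2a have probe sets that run in opposite directions, the dimmer ones at mean levels of -1.21 and below. The cause was not tested for the others. The 2 genes called between iPSC and ESC became 4 with genes below the 40th percentile left out, 1 with the mean of probe sets, 0 with animal as a random block, 9 without MEF-derived clones, and 0 to 4 when each ESC clone was left out in turn. The 0 genes called between NT-ESC and donors became 16 without the Adeno-2 family (10.4% of all genes lower, 10.2% higher) and 6 in that family alone (9.38% and 7.91%), where the donor is 1 array whose spread is assumed, so that the 6 support no call, and stayed 0 without the replicate block of donors. ESC and MEF-derived clones share clone numbers 1 to 4; deviations of same-numbered clones correlated by 0.06, 0.12, 0.35 and 0.31, and 2 of the 4 ESC clones correlated best with their own number. The labels name no shared source and 1 value is below 0.1, so the numbers were not taken as pairs; the replicate block called 0 of the 39 genes, as did the fit without it. Leaving out iPSC-7, or iPSC-34 with iPSC-46 (both chosen after seeing the data), gave 31 and 26 genes, among them 29 and 26 of the 29.

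The arrays are few in ESC (4) and NT-ESC (6), each line has 1 array, probe sets of some genes disagree, and animal, fibroblast source and feeder content cannot be separated fully.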
